A study of Homo sapiens with 60 samples.

Results

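The ethanol extract of Aucklandiae Radix, the dried root of Aucklandia, was compared between its medium and its low dose in SW1783, an established human astrocytoma line, in 4 of the 60 messenger RNA libraries of the series. The members were taken by their labels: 2 libraries at 32 µg/mL (medium) and 2 at 6.4 µg/mL (low), each numbered replicate 2 or 3 and all from the library set whose names begin with 11. The high dose of the same extract, 160 µg/mL, had 2 further libraries of that set and each dose was 5 times the one below it, the high dose being the IC20 of the extract per the series text. Vehicle was 0.1% DMSO per the sample records (2% in the series text) in 3 libraries of another set, D1. All groups were the same line in L-15 medium with serum, with no genetic change in the labels, exposed for 24 h. The labels do not say whether replicates were separate cultures, so p-values measure a spread between libraries that may be technical. That spread was taken from 1 fit of all 60 libraries, not from the compared libraries alone. In that fit the 3 Okbyeongpung-san doses, 1 library each, formed 1 group. Polygalae Radix, a second root extract of set 11, had 2 libraries at 6 µg/mL (medium) and 2 at 1.2 µg/mL (low). Its high dose, 30 µg/mL, and the formula Guibi-tang at 500 µg/mL, from set 13, enter a later comparison. The question was which genes moved first, at 32 µg/mL, and where those genes stood at 160 µg/mL.

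Aucklandiae Radix is known for sesquiterpene lactones such as costunolide and dehydrocostus lactone, which react with thiol groups, and reactive compounds of this kind are known to release the transcription factor NRF2 from its thiol-rich inhibitor KEAP1 and so to raise HMOX1 and other antioxidant genes. Several genes described below belong to the cell surface and the secreted space, among them members of Wnt signalling, in which R-spondins acting through LGR receptors strengthen the Wnt signal and secreted frizzled-related proteins bind Wnt ligands outside the cell. The composition of the extract was not measured in these data.

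The medium and low libraries held 22751337 to 31023683 expected counts, and the 6 libraries of all 3 doses 22408501 to 31023683. Mitochondrially encoded genes took 8.23% and 5.599% of counts in the medium libraries, against 7.74% and 6.73% in the low libraries. The slope of the deviation from vehicle on transcript length, per doubling of length, ran from -0.060 to 0.0025 (log2) over the 6 Aucklandiae libraries, within the range of -0.303 to 0.130 over all 60. Of 15 astrocyte and glioma markers, VIM stood at 5256 to 6109 CPM (counts scaled to library size), CD44 at 2731 to 3347 CPM, EGFR at 283 to 394 CPM and SOX9 at 69.0 to 75.2 CPM in the 4 libraries. GFAP, AQP4, ALDH1L1, SOX2 and FABP7 had at most 2 counts in any of them, while the astrocyte glutamate transporter SLC1A3 stood at 25.0 to 31.8 CPM, so only some astrocyte markers were detected. The leukocyte markers CD3E and AIF1 had 0 counts in all 4, but other markers of neurons, leukocytes, endothelium and epithelium were present, such as SNAP25 at 24.6 to 28.8 CPM, CD68 at 153.1 to 221.4 CPM, KDR at 35.0 to 42.6 CPM and KRT18 at 109.3 to 143.2 CPM. None of the markers was called between the medium and low dose, where 0.0484% of all genes were. In bulk libraries fewer cells of a kind and less RNA per cell cannot be told apart.

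The 5-fold step from 6.4 to 32 µg/mL moved few genes. With edgeR's quasi-likelihood test over 18601 genes, 9 were called at a Benjamini-Hochberg adjusted p under 0.05 (0.0484% of those tested). KCNC4 and SLCO4A1 rose (0.0108%), and PLXDC1, LGR6, C1R, ANGPTL2, SFRP2, FIBIN and METTL7A fell (0.0376%). The balance of 2 higher and 7 lower depended on the libraries in the fit, with 11 higher and 9 lower in set 11 alone and 12 higher and 7 lower in the compared groups alone. At an unadjusted p under 0.05 there were 703 genes (3.78%), 287 higher (1.54%) and 416 lower (2.24%), and the medium and low libraries did not overlap for 8353 genes (44.9%). By contrast 3119 genes (16.8%) were called between 160 and 32 µg/mL and 5875 (31.6%) between 160 µg/mL and vehicle. All 9 genes were without overlap between the medium and the low libraries and moved the same way within both replicate numbers. FIBIN, METTL7A and LGR6 lay below the level that the rule for naming genes asked for and are named because the list is so short.

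**Figure D1:**
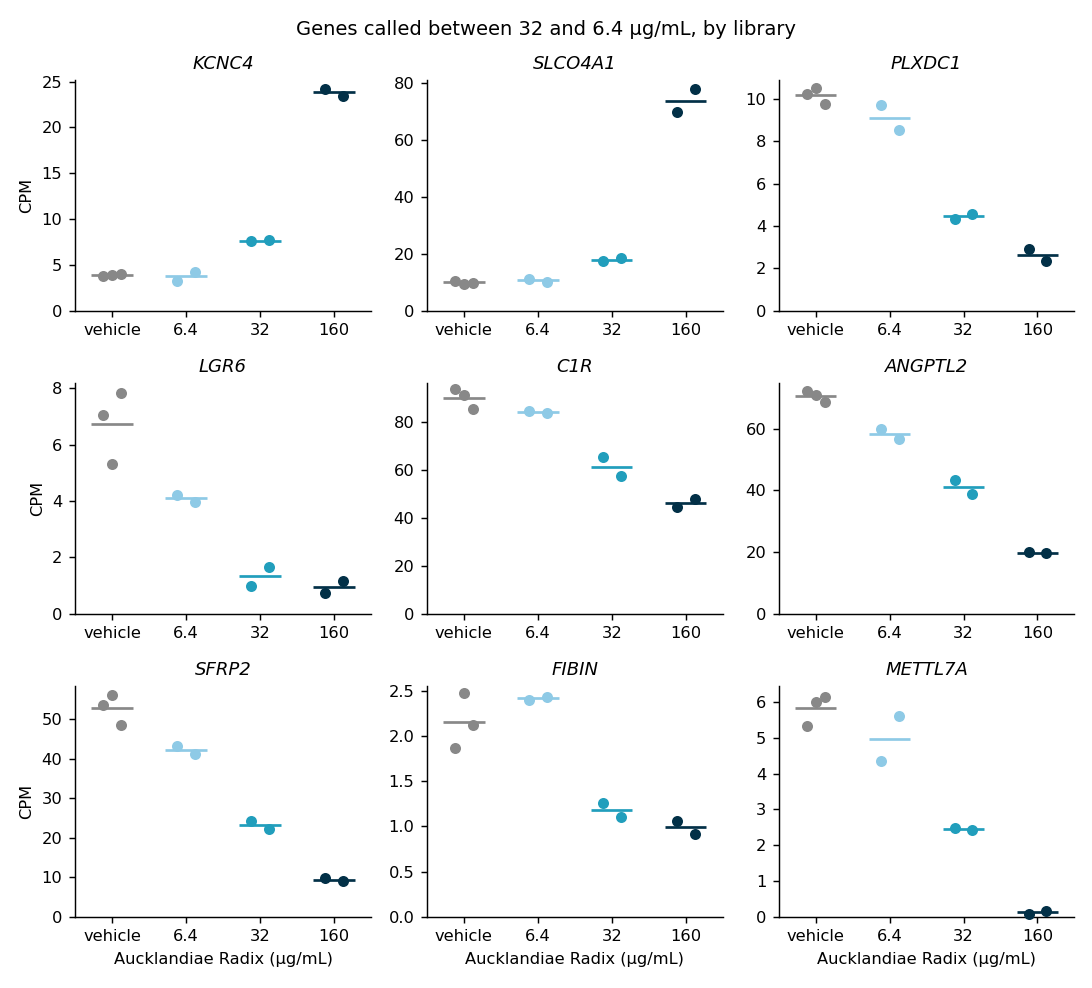
CPM of the 9 called genes in each library of vehicle (3), 6.4, 32 and 160 µg/mL (2 each); points are libraries and bars their mean, with a linear axis from 0 in each panel. KCNC4 and SLCO4A1 are higher at 32 µg/mL and higher again at 160 µg/mL, and the other 7 are lower, LGR6 and FIBIN without a called change beyond 32 µg/mL.

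The called rises were those of a channel gene and a transporter gene. KCNC4, which encodes a voltage-gated potassium channel (ENSG00000116396, GRCh38 chromosome 1, 110211343 to 110283100), was at 7.54 and 7.69 CPM in the medium libraries, against 3.22 and 4.26 CPM in the low libraries. Both medium libraries lay above both low ones, and the low ones lay around the vehicle values of 3.77, 3.85 and 3.94 CPM. The log2 fold change was 1.02 ± 0.17 (SE), a 2.03-fold rise with an edgeR adjusted p of 0.00478. At 160 µg/mL KCNC4 was at 24.2 and 23.5 CPM, a further log2 change of 1.64 ± 0.17 over the medium dose (edgeR adjusted p = 6.77e-10).

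SLCO4A1, an organic anion transporter known to carry thyroid hormones (ENSG00000101187, chromosome 20, 62642445 to 62685785), was at 17.6 and 18.3 CPM in the medium libraries, against 11.2 and 10.1 CPM in the low libraries. The groups did not overlap, and the low libraries lay near vehicle (10.5, 9.49 and 9.75 CPM). The log2 fold change was 0.75 ± 0.15, or 1.69-fold (edgeR adjusted p = 0.0323). At the high dose it stood at 69.7 and 77.8 CPM, 4.11-fold over the medium dose, which was the highest mean of the 25 groups of the series. Genes annotated on the opposite strand, SLCO4A1-AS1 among them, lie within it, and the strand setting of the counting was not given in the sources used here.

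The called falls included the membrane protein genes PLXDC1 and LGR6. PLXDC1, a plexin-domain protein of the cell surface first described in tumour endothelium (ENSG00000161381, chromosome 17, 39063303 to 39154394), was at 4.36 and 4.57 CPM in the medium libraries, against 9.74 and 8.53 CPM in the low libraries. That is a log2 fold change of -1.03 ± 0.15 with the smallest p of all genes (edgeR adjusted p = 0.000373). At 160 µg/mL it was lower again, at 2.89 and 2.35 CPM, against 10.3, 10.5 and 9.79 CPM in vehicle, and the step from 32 to 160 µg/mL was itself called (log2 -0.77, edgeR adjusted p = 0.000333).

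LGR6, a receptor for R-spondins (ENSG00000133067, chromosome 1, 202193901 to 202319781), was at 0.988 and 1.66 CPM in the medium libraries, from 22 and 48 counts, against 4.21 and 3.97 CPM in the low libraries, from 93 and 121 counts. Both medium libraries were far below both low ones, and this was the largest fold among the 9 (log2 -1.60 ± 0.25, 0.329 of the low level, edgeR adjusted p = 0.000709). The low libraries already lay below the 3 vehicle libraries (7.04, 5.31 and 7.84 CPM), a gap that cannot be told apart from the difference between library sets. At 160 µg/mL LGR6 was at 0.723 and 1.17 CPM, overlapping the medium libraries, and the further change was not called (log2 -0.50 ± 0.27, edgeR adjusted p = 0.242). The ratio of high to medium counts was 0.691, with a 95% counting interval of 0.463 to 1.02. Leaving out 1 library moved the log2 change between -0.058 (without medium replicate 3, edgeR adjusted p = 0.975) and -0.88 (without medium replicate 2, edgeR adjusted p = 0.0813), so whether LGR6 fell further beyond the medium dose could not be settled.

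SFRP2, ANGPTL2, C1R and FIBIN, which also fell, encode secreted proteins. SFRP2, a secreted frizzled-related protein that binds Wnt ligands (ENSG00000145423, chromosome 4, 153780592 to 153789120), was at 24.2 and 22.2 CPM in the medium libraries, against 43.2 and 41.1 CPM in the low libraries. Its level was 0.550 of the low one (log2 -0.86 ± 0.16, edgeR adjusted p = 0.0119). It fell again at the high dose, to 9.91 and 8.95 CPM, against 53.6, 56.1 and 48.5 CPM in vehicle. ANGPTL2, a secreted angiopoietin-like glycoprotein linked to inflammation (ENSG00000136859, chromosome 9, 127087332 to 127122883), was at 43.5 and 38.9 CPM in the medium libraries, against 59.98 and 56.69 CPM in the low libraries (log2 -0.50 ± 0.094, edgeR adjusted p = 0.0119). At 160 µg/mL it was at 19.9 and 19.6 CPM, the lowest mean of the 25 groups.

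C1R, the serine protease that starts the classical complement cascade (ENSG00000159403, chromosome 12, 7080199 to 7092607), had the smallest change and the highest counts of the 9. It was at 65.1 and 57.2 CPM in the medium libraries, against 84.4 and 83.5 CPM in the low libraries (log2 -0.46 ± 0.080, edgeR adjusted p = 0.00566), and at 44.4 and 47.9 CPM at the high dose, against 93.7, 91.3 and 85.1 CPM in vehicle. C1RL, a related protease gene that overlaps it on the same strand, had a log2 fold change of -0.50 ± 0.11 that was not called (edgeR adjusted p = 0.108), and reads of the shared stretch could be assigned to either. FIBIN, a small secreted protein known from fin bud formation in fish (ENSG00000176971, chromosome 11, 26994184 to 26996121), was at 1.26 and 1.11 CPM in the medium libraries, from 28 and 32 counts, against 2.40 and 2.43 CPM in the low libraries, from 53 and 74 counts (log2 -1.03 ± 0.20, edgeR adjusted p = 0.0178). The high-dose libraries, at 1.06 and 0.913 CPM, lay just under the medium ones, and the step was not called (log2 -0.25 ± 0.22, edgeR adjusted p = 0.651, counting interval of the ratio 0.561 to 1.26).

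METTL7A, a membrane-bound methyltransferase now called TMT1A that acts on thiols (ENSG00000185432, chromosome 12, 50923472 to 50932517), showed the widest range over the doses. It was at 2.47 and 2.42 CPM in the medium libraries, from 55 and 70 counts, against 4.35 and 5.61 CPM in the low libraries, from 96 and 171 counts (log2 -1.03 ± 0.21, edgeR adjusted p = 0.0323). The high-dose libraries held 2 and 4 counts. Over both libraries that was 0.0528 of the medium level, with a 95% counting interval of 0.0190 to 0.118. With replicate number as a block the medium fall was not called (edgeR adjusted p = 0.0856).

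How far each gene had gone by 32 µg/mL differed. As a share of the log2 change from low to high dose, the medium step was 80.3% for FIBIN, 76.2% for LGR6, 57.3% for PLXDC1 and 52.9% for C1R. For SFRP2, KCNC4 and ANGPTL2 the share was 39.95%, 38.2% and 32.1%, and for SLCO4A1 and METTL7A 27.0% and 19.7%. Each share divides by a change that holds the same low libraries, so it is a description.

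For 6 of the 9 genes RefSeq (GRCh38.p14) gave the sequence before a transcript start, METTL7A under TMT1A; PLXDC1, SLCO4A1 and FIBIN were not matched. The 250 bases before the start are shown for KCNC4, which rose, and for SFRP2, ANGPTL2 and METTL7A, which fell further at the high dose; C1R and LGR6 have more than 1 start and are not shown. Both strands were searched for the antioxidant response element (TGACNNNGC), the binding motif of AP-1 (TGANTCA), a heat shock element (GAANNTTC) and the cyclic AMP response element (TGACGTCA). The E-box searched was CACGTG, the GC box was GGGCGG, and the motif for the basal start site known as the TATA box was TATAAA. Capitals mark every match, and none of the matches shown overlaps another. The sequences run 5′ to 3′ on the gene's strand, at chr1:110210064-110210313 (+) for KCNC4, chr4:153789084-153789333 (-) for SFRP2, chr9:127122636-127122885 (-) for ANGPTL2 and chr12:50924765-50925014 (+) for METTL7A.
KCNC4: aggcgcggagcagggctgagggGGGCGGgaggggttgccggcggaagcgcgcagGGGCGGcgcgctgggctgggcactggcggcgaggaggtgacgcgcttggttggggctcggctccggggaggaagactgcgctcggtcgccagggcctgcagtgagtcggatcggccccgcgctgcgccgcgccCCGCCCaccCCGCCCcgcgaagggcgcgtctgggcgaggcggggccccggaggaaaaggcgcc
SFRP2: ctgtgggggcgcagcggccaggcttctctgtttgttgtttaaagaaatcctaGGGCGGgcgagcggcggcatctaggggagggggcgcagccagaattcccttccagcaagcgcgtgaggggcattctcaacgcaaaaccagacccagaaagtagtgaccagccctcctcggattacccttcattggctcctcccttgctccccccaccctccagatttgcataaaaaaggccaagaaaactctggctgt
ANGPTL2: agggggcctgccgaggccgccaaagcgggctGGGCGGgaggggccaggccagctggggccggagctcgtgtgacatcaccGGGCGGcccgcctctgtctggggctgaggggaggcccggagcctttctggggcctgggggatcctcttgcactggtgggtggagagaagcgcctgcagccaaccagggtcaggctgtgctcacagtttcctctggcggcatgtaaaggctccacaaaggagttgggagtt
METTL7A: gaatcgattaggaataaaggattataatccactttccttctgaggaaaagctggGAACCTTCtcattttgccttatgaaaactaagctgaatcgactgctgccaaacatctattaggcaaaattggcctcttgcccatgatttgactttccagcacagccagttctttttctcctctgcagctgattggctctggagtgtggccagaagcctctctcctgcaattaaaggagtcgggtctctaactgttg
KCNC4 has 4 GC boxes, ANGPTL2 has 2 and SFRP2 has 1, a motif that 42.6% of the 35116 RefSeq windows of this length hold. METTL7A has 1 heat shock element, held by 5.78% of the windows. The letters of the antioxidant response element, held by 10.9% of all windows, and of AP-1, held by 6.57%, were in none of the 9 windows of the 6 genes, nor were those of the cyclic AMP response element, the E-box and the TATA box. The windows of KCNC4 and METTL7A are 79.2% and 44.4% G or C.

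At the high dose all 9 genes stood where the medium step pointed. All 9 were called between 160 µg/mL and vehicle in the same direction (2 higher and 7 lower), a comparison that shares no library with medium against low and in which 31.6% of genes were called, 15.2% higher and 16.4% lower. Both comparisons take the spread of each gene from the same fit, so their calls are not independent either. These 9 are 0.153% of the high-dose calls. The log2 changes of high against vehicle were 2.63 for KCNC4, 2.90 for SLCO4A1, -1.96 for PLXDC1, -2.82 for LGR6, -0.97 for C1R, -1.84 for ANGPTL2, -2.48 for SFRP2, -1.12 for FIBIN and -5.45 for METTL7A. The last rests on 2 and 4 counts and depends on the prior count. Between 160 and 32 µg/mL, where 16.8% of genes were called, 6.93% higher and 9.84% lower, 7 of the 9 were called in the same direction, and LGR6 and FIBIN were not. Set 11 and the extract cannot be told apart in the comparison with vehicle. High against low, within set 11, called all 9 in the same direction (22.8% of genes called, 9.68% higher and 13.1% lower), but it shares the low libraries on which the 9 were called and is no independent support; high against medium likewise shares the medium libraries.

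The wider set of genes below an unadjusted p of 0.05 was followed to the high dose in the same way. Of the 703, 433 (61.6%) were called between high dose and vehicle in the same direction and 12 in the opposite one. Of the 287 higher genes 172 (59.9%) were called higher at the high dose, where 15.2% of all genes were, and of the 416 lower genes 261 (62.7%) were called lower, where 16.4% were. These 433 are 7.37% of the high-dose calls, and the 703 had a median of 2.31 log2 CPM, below the 3.68 of all tested genes. For the step from 1.2 to 6 µg/mL of Polygalae Radix, which shares neither extract nor libraries with the Aucklandiae high dose or vehicle, 1601 genes had an unadjusted p under 0.05. Of those, 471 (29.4%) were called at the Aucklandiae high dose in the same direction and 302 (18.9%) in the opposite one.

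**Figure D2:**
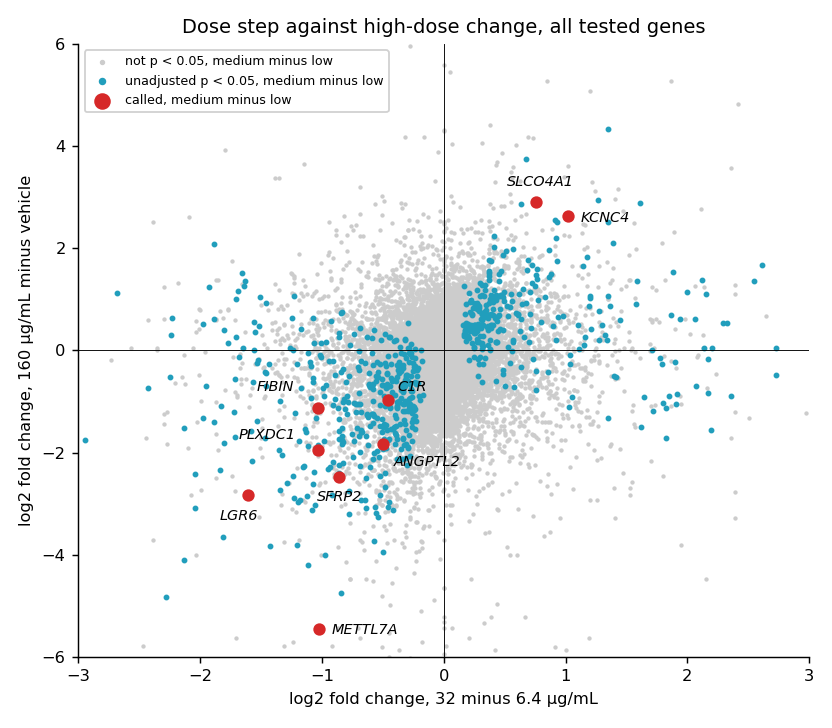
Log2 fold change of 32 against 6.4 µg/mL (x) and of 160 µg/mL against vehicle (y) for the tested genes, with 146 genes beyond the axes not drawn; blue points have an unadjusted p under 0.05 on x, and red points are the 9 called genes. All 9 lie at the lower left or the upper right, and so do most blue points.

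Genes just beyond the threshold, chosen here after their values were seen, were mostly lower at the medium dose. SELENBP1, a methanethiol oxidase, was at 2.33 and 2.56 CPM in the medium libraries, against 6.12 and 6.33 CPM in the low libraries (log2 -1.34 ± 0.29, edgeR adjusted p = 0.0579). BEGAIN, a protein of the postsynaptic density, was at 19.4 and 21.2 CPM in the medium libraries, against 32.8 and 27.5 CPM in the low libraries (log2 -0.57 ± 0.12, edgeR adjusted p = 0.0579). GLUL, the glutamine synthetase of astrocytes, was at 46.1 and 45.9 CPM in the medium libraries, against 63.4 and 63.1 CPM in the low libraries (edgeR adjusted p = 0.0862). The same held for LYPD1, which modulates nicotinic receptors, at 28.1 and 25.0 CPM in the medium libraries, against 37.96 and 40.82 CPM in the low libraries (edgeR adjusted p = 0.0903). CDCP1, a surface protein phosphorylated by Src kinases, was the exception in direction, at 299.6 and 311.5 CPM in the medium libraries, against 184.8 and 196.2 CPM in the low libraries (edgeR adjusted p = 0.108). All 5 were called between high dose and vehicle with the sign of their medium step, at a log2 change of -2.74, -2.02, -1.05, -3.73 and 1.58 in the order given. In that comparison 15.2% of all genes were called higher and 16.4% lower.

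Among genes not called at 32 µg/mL, those with the largest changes at the high dose were chosen by the naming rule, along with 4 genes known from earlier results. HMOX1, which degrades heme and is a classical NRF2 target, was at 90.9 and 87.5 CPM in the medium libraries, against 71.9 and 65.6 CPM in the low libraries. The groups did not overlap, but the log2 fold change of 0.38 ± 0.40 was within its error (edgeR adjusted p = 1). At 160 µg/mL it was at 1290 and 1250 CPM, 14.2-fold over the medium dose (edgeR adjusted p = 1.34e-08). ANGPTL4, whose secreted protein inhibits lipoprotein lipase, had 41.8 and 38.2 CPM in the medium libraries, against 16.8 and 14.7 CPM in the low libraries, and reached 271.8 and 293.8 CPM at the high dose. Its medium step, a log2 change of 1.35 ± 0.55, was larger than that of either called rise but had a larger error (edgeR adjusted p = 1). Within replicate numbers 2 and 3 the step was 1.32 and 1.38. The error was taken from all groups. Among them the 3 Okbyeongpung-san doses, 1 library each, were fitted as 1 group, with ANGPTL4 at 144.6 CPM at the high dose. What this added to the error was not tested. Of the 10 tested lipid-responsive PPAR targets, which include ANGPTL4, 1 was called higher in set 11 alone and in the compared groups alone. THBD, the thrombin receptor thrombomodulin, was at 16.7 and 17.8 CPM in the medium libraries, against 11.0 and 10.6 CPM in the low libraries (edgeR adjusted p = 0.672), and at 136.8 and 108 CPM at the high dose. For TM4SF19, a tetraspanin-like membrane protein, the medium libraries held 2.33 and 3.15 CPM, against 1.68 and 1.97 CPM in the low libraries (edgeR adjusted p = 1). TMEM171, a transmembrane protein, had a log2 medium step of 0.63 ± 0.30 (edgeR adjusted p = 1).

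KIF20A, a kinesin of cytokinesis, was at 126.7 and 113 CPM in the medium libraries, against 131.8 and 137.7 CPM in the low libraries (edgeR adjusted p = 1), and fell to 11.5 and 14.2 CPM at the high dose. VAV3, a guanine nucleotide exchange factor, was at 6.06 and 4.61 CPM in the medium libraries, against 11.6 and 11.4 CPM in the low libraries, a log2 difference of -1.11 ± 0.34 that was not called (edgeR adjusted p = 0.579). At the high dose it was at 0.680 and 0.739 CPM. SCN3A, a neuronal sodium channel, NEURL1B, a ubiquitin ligase of the Notch pathway, and DIO2, which activates thyroid hormone, had medium steps of -0.21, -0.18 and -0.47 (log2) and steps from 32 to 160 µg/mL of -3.41, -3.34 and -3.33. None of these 3 medium steps was called (edgeR adjusted p = 1 each), and the later steps all were. TUBA1B-AS1, an antisense transcript, is among the largest high-dose falls by the rule, but it had 8 counts or fewer in every Aucklandiae library, against 135 to 136.2 CPM in vehicle, and within set 11 it stood at 257.7 CPM in one Polygalae medium library and 0.0417 CPM in the other. Its difference from vehicle is therefore not a step between doses.

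**Figure D3:**
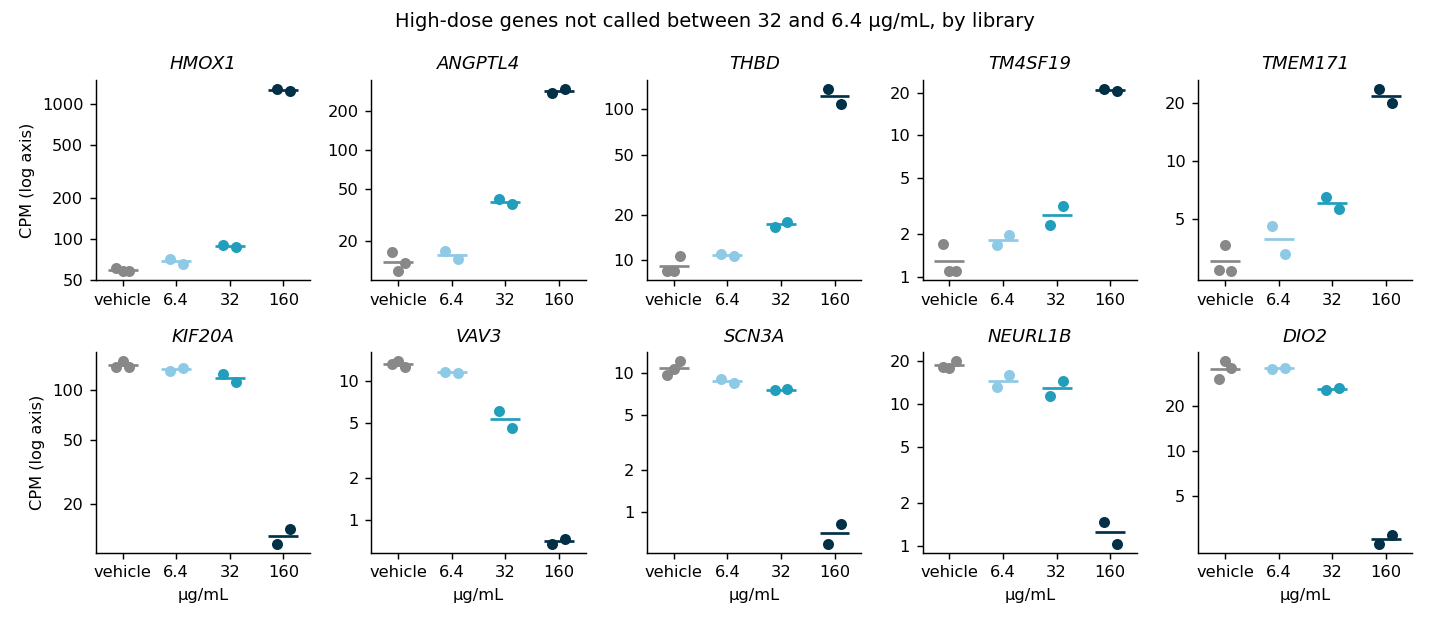
CPM on a log axis of 10 genes that lead the high dose and were not called between 32 and 6.4 µg/mL, in each library of vehicle (3), 6.4, 32 and 160 µg/mL (2 each), with bars at the mean. The upper row is highest and the lower row lowest at 160 µg/mL, with the main step between 32 and 160 µg/mL; ANGPTL4 and VAV3 also stand apart at 32 µg/mL.

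No pathway list had a member called at 32 µg/mL in the main edgeR fit of all 60 libraries. With only 0.0484% of all genes called there, this absence does not set the list members apart from all genes. Lists with a called member numbered 9 with length as a covariate, 4 in set 11 alone and 2 in the compared groups alone. Over 24 lists with 472 distinct tested genes, chosen with earlier results known, edgeR called 0 members, DESeq2 called 1 (LIF) and 36 (7.63%) had an unadjusted p under 0.05, 17 higher and 19 lower, against 3.78% of all genes. List medians ran from -0.21 to 0.16 (log2) for medium against low, where the median of all genes was -0.0043, and from -1.63 to 0.88 for high against vehicle, where it was -0.014. NRF2 targets had a median of 0.10, with 0 of 28 called, 0 above and 1 (AKR1B10) below at unadjusted p. With length as a covariate 7 were above, in set 11 alone 6 and in the compared groups alone 8, with 1 below in each and none called. Between 160 and 32 µg/mL, where 6.93% of all genes rose and 9.84% fell, 9 of the 28 rose and 2 fell. Against vehicle, where 15.2% of all genes rose and 16.4% fell, 20 rose and 3 fell at the high dose. SRXN1, which repairs peroxiredoxins, was at 144.3 and 152.4 CPM in the medium libraries, against 114.7 and 126.3 CPM in the low libraries, and at 276.6 and 301.7 CPM at the high dose.

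The falls of cell cycle genes lay between 32 and 160 µg/mL. The 28 G2/M genes had a median of -0.0062 and none at an unadjusted p under 0.05 between 32 and 6.4 µg/mL (0 called by edgeR and by DESeq2), and all 28 fell between 160 and 32 µg/mL, with a median of -1.70, where 9.84% of all genes fell. The medium median was 0.0054 with RLE scaling and 0.040 without medium replicate 3. PLK1, a mitotic kinase, was at 165.6 and 143.9 CPM in the medium libraries, against 149.6 and 152.5 CPM in the low libraries, and at 30.1 and 27.9 CPM at the high dose. The 27 ATF4 stress genes had a medium median of -0.063, with SLC7A5 and VLDLR alone above at unadjusted p, and 15 rose and 1 fell between 160 and 32 µg/mL, where 6.93% of all genes rose. CHAC1, which cleaves glutathione, was at 5.93 and 5.30 CPM in the medium libraries, against 6.66 and 7.05 CPM in the low libraries, and at 19.5 and 17.5 CPM at the high dose. Of 25 interferon response genes, whose medium median of -0.21 was the lowest, 1 (IFI44L) was below at unadjusted p and 11 fell between 160 and 32 µg/mL, where 9.84% of all genes did. The summed CPM of the 25 was 425.3 to 452.5 in the medium libraries, 499.3 to 499.8 in the low libraries and 439.2 to 469.4 in vehicle. The medium and vehicle sums thus overlapped, and the low sums lay above both.

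Immediate early and MAPK feedback genes are induced by growth factor signalling, and the feedback genes among them restrain it. This list had the highest list median at the medium dose, 0.16. Of 26 tested, 7 had an unadjusted p under 0.05 and all 7 were higher at 32 µg/mL (26.9%, where 1.54% of all genes were), but none was called by edgeR or DESeq2, and 3 were called with length as a covariate. The summed CPM of the 26 was 2047 to 2078 in the medium libraries, 1737 to 1843 in the low libraries and 1985 to 2091 in vehicle. The medium sums thus lay within the vehicle range and the low sums below it. That gap cannot be told apart from the difference between library sets. DUSP6, a phosphatase of ERK, was at 39.2 and 35.7 CPM in the medium libraries, against 27.0 and 26.6 CPM in the low libraries (log2 0.48 ± 0.15, edgeR adjusted p = 0.539). DUSP1 and DUSP5, phosphatases of the same family, had medium steps of 0.37 and 0.41, SPRY4, an inhibitor of the Ras pathway, 0.49, and FOSL1, MYC and PHLDA1 had 0.44, 0.34 and 0.27. Between 160 and 32 µg/mL, where 6.93% of all genes rose, 13 of the 26 rose, DUSP5 by 1.95 and DUSP6 by 1.19 (log2, edgeR adjusted p = 8.33e-14 and 4.5e-08), and FOSL1 did not pass (0.23, adjusted p = 0.5). Leaving out 1 medium or low library at a time left 4 to 6 higher members at unadjusted p.

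Of the collagen and matrix genes 3 of 26 had an unadjusted p under 0.05, of the contractile targets 2 of 18 and of the NF-kB targets 5 of 24 (3 higher and 2 lower), and none was called. Of all genes 3.78% had such a p, 1.54% higher and 2.24% lower, and these list counts rest on few members. COL1A2, a chain of type I collagen, was at 994.8 and 1105 CPM in the medium libraries, against 1384 CPM in both low libraries, and COL3A1 at 17.6 and 19.4 CPM in the medium libraries, against 27.5 and 27.9 CPM in the low libraries. Neither was called (edgeR adjusted p = 1 for both). With LUM they were the 3 of 26 collagen and matrix genes below at unadjusted p. Between 160 and 32 µg/mL 8 of the 26 fell and 1 rose, where 9.84% of all genes fell. CNN1, a calponin of the contractile apparatus, was at 1.89 and 1.84 CPM in the medium libraries, against 3.44 and 3.31 CPM in the low libraries (edgeR adjusted p = 0.571), and ICAM1, an adhesion molecule, at 30.5 and 30.7 CPM in the medium libraries, against 39.3 and 40.8 CPM in the low libraries (edgeR adjusted p = 0.252). CXCL8, a neutrophil chemokine, and SERPINB2, a plasminogen activator inhibitor, were at 8.44 and 9.18 CPM and at 37.0 and 26.9 CPM in the medium libraries, against 5.48 and 4.92 CPM and 21.8 and 21.6 CPM in the low libraries. At the high dose the same genes had 8.42 and 9.61 CPM and 36.4 and 26.7 CPM, so for both the high and medium libraries overlapped (edgeR adjusted p = 0.964 and 0.976 for high against medium).

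**Figure D4:**
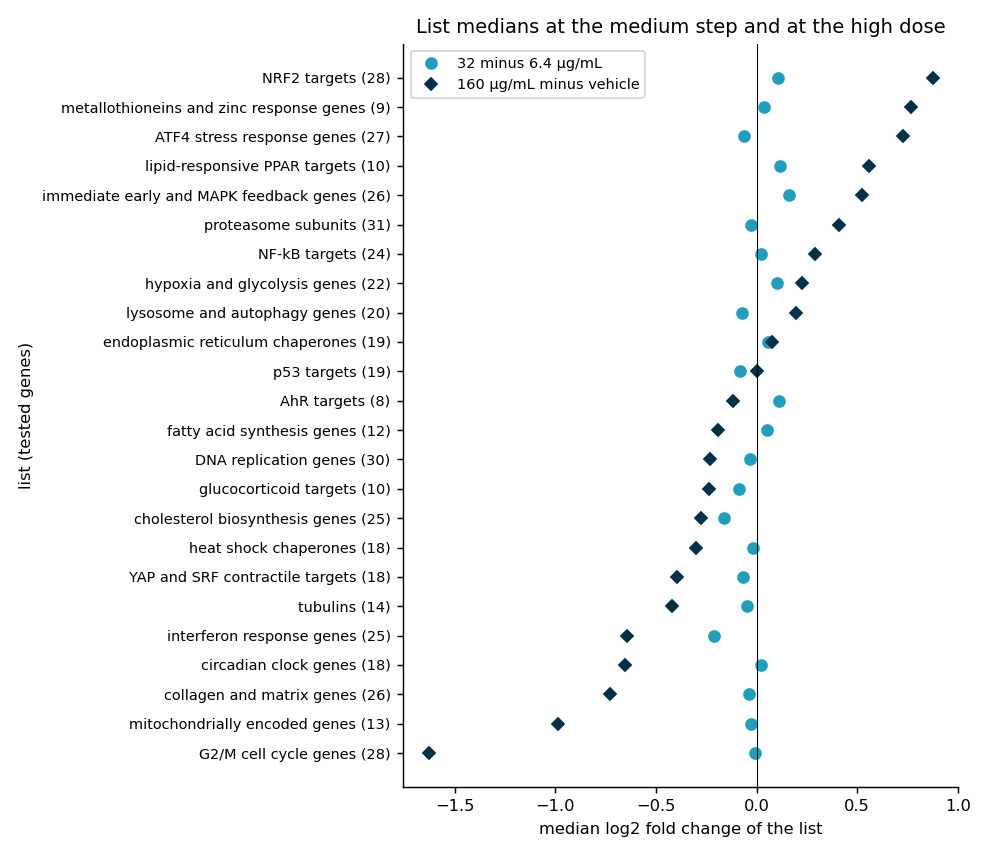
Median log2 fold change of the tested members of 24 gene lists (number in brackets) for 32 against 6.4 µg/mL (circles) and for 160 µg/mL against vehicle (diamonds). Circles stay between -0.21 and 0.16, and diamonds spread from -1.63 (G2/M genes) to 0.88 (NRF2 targets).

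Polygalae Radix of the same library set called more genes over the same 5-fold step, 206 (1.11%), 44 higher (0.237%) and 162 lower (0.871%), at doses that are not matched to those of Aucklandiae Radix. The difference between the steps was called for 86 genes (0.462%), 55 with the higher and 31 with the lower Aucklandiae step, and 6.70% of genes had an unadjusted p under 0.05, 3.62% higher and 3.08% lower. Among the 9 genes it was called for 3, whose Polygalae steps were not themselves called. The 9 were chosen by their Aucklandiae step, which is part of this difference. The 3 calls are therefore no independent support for a difference between the extracts. KCNC4 had 3.30 and 2.71 CPM in the Polygalae medium libraries, against 3.71 and 3.22 CPM in the Polygalae low libraries, and its 2 steps differed by 1.23 ± 0.25 (log2, edgeR adjusted p = 0.0112). SLCO4A1 had 7.77 and 6.30 CPM in the Polygalae medium libraries, against 8.56 and 9.11 CPM in the Polygalae low libraries (difference of steps 1.08 ± 0.22, edgeR adjusted p = 0.0095). ANGPTL2 had 76.6 and 73.3 CPM in the Polygalae medium libraries, against 70.2 and 65.0 CPM in the Polygalae low libraries (difference -0.65 ± 0.13, edgeR adjusted p = 0.0095). Leaving out 1 of the 8 libraries at a time took these adjusted p up to 0.161, 0.102 and 0.101, and kept the call in 5, 5 and 4 of the 8 refits.

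PLXDC1 and LGR6 also fell over the Polygalae step, by 0.54 and 0.93 on the log2 scale (edgeR adjusted p = 0.0485 and 0.0293), and their steps were not shown to differ between the extracts (differences of -0.49 ± 0.21 and -0.67 ± 0.34, edgeR adjusted p = 0.58 and 0.757). Both Polygalae calls were lost without any 1 of its 4 libraries, with adjusted p up to 0.539 and 0.262. SFRP2, FIBIN and METTL7A had Polygalae steps of 0.018, -0.00079 and 0.0060, and C1R one of -0.26. None of these 4 differences of steps was called (edgeR adjusted p = 0.0657, 0.0908, 0.117 and 0.883).

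**Figure D5:**
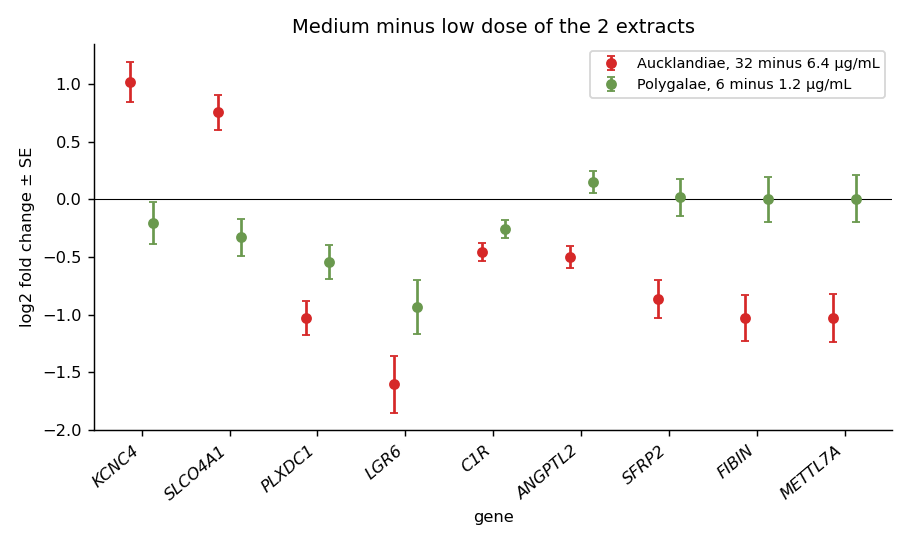
Log2 fold change of medium against low dose for the 9 genes, with the SE of the edgeR fit, for Aucklandiae Radix (red, 32 against 6.4 µg/mL) and Polygalae Radix (green, 6 against 1.2 µg/mL). KCNC4, SLCO4A1 and ANGPTL2 have fitted steps of opposite sign, but their Polygalae steps were not called (edgeR adjusted p = 0.926, 0.558 and 0.769). The Polygalae steps of SFRP2, FIBIN and METTL7A are near 0, and the steps of PLXDC1, LGR6 and C1R are below 0 for both extracts.

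Across the 25 groups of the series LGR6, PLXDC1, SFRP2, C1R, KCNC4, ANGPTL2 and METTL7A stood at or next to an extreme in Guibi-tang at its high dose. That dose was 500 µg/mL, in library set 13. How many of all tested genes stood at or next to an extreme there was not counted. The length slopes of its libraries, 0.1075 to 0.1173, lay near the highest of all 60, 0.1304. The textbook recipe of Guibi-tang holds both Aucklandiae Radix and Polygalae Radix. The Guibi-tang high-dose mean was 0.167 CPM for LGR6, 1.98 CPM for PLXDC1, 7.61 CPM for SFRP2 and 21.0 CPM for C1R, the lowest of all groups for each. For KCNC4 it was 23.3 CPM, second to the Aucklandiae high dose at 23.8 CPM. For ANGPTL2 and METTL7A it was 27.2 and 1.14 CPM, second lowest after the Aucklandiae high dose at 19.75 and 0.129 CPM. SLCO4A1, at 11.98, 11.55 and 10.5 CPM, and FIBIN, at 1.42, 1.37 and 1.59 CPM, did not stand at or next to an extreme there. For SLCO4A1 the second highest mean was that of the Aucklandiae medium dose, 18.0 CPM. At the Polygalae high dose, 30 µg/mL in set 11, C1R was at 25.0 and 24.8 CPM and LGR6 at 0.384 and 0.414 CPM. Both were nearer to Guibi-tang than the Aucklandiae high dose, with means of 46.1 and 0.948 CPM. PLXDC1, SFRP2, KCNC4, ANGPTL2 and METTL7A were nearer to Guibi-tang at the Aucklandiae high dose. The doses are not matched, and the formula and the roots come from different library sets. Dose, library set and extract therefore cannot be told apart here. The part of either root in the formula was not tested.

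PLXDC1 was the gene whose call held most widely. It was called under all 11 alternatives, with a highest adjusted p of 0.047, and LGR6 under 9, KCNC4 under 8, SFRP2 under 7, SLCO4A1 under 6, ANGPTL2 and C1R under 5, FIBIN under 4 and METTL7A under 3, always with the same sign. Without medium replicate 2, low replicate 2, medium replicate 3 or low replicate 3, 6, 2, 2 and 3 genes were called, 4, 2, 2 and 3 of them among the 9. Without medium replicate 2 LGR6 was lost (edgeR adjusted p = 0.176). Without low replicate 2 and without medium replicate 3 KCNC4 was lost (0.479 and 0.166), and so were C1R (0.211 and 0.731) and ANGPTL2 (0.386 and 0.737), which were lost without low replicate 3 too (0.118 and 0.109). SFRP2, SLCO4A1, FIBIN and METTL7A were lost whichever library was left out, with adjusted p up to 0.632, 0.716, 0.737 and 0.843. The high-dose calls of all 9 against vehicle held under all 11 alternatives.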

How the data were processed

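Directional messenger RNA libraries of SW1783 cells were sequenced with paired reads on an MGI instrument, per the labels' protocols. The deposited table holds expected counts per gene for 60 libraries, made by the authors with RSEM 1.3.3 and STAR 2.7.3a after Trim Galore 0.6.5 and FastQC 0.11.9 on GRCh38, per the submitters' processing notes; annotation release, filters and strand setting are not given in the sources used here. Of 60675 identifiers 41209 (67.9%) carry a symbol, and positions are those of GENCODE 29.

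Expected counts were rounded. All 60 libraries (19031094 to 37686975 counts) entered 1 edgeR 4.0.16 quasi-likelihood fit (R 4.3.3, limma 3.58.1, TMM scaling, filterByExpr with a minimum count of 10 and total of 15) with 23 groups and 37 residual degrees of freedom. Benjamini-Hochberg adjustment ran over 18601 genes, with calls at an adjusted p under 0.05, and the SE was taken from the log2 fold change and its F statistic. CPM used TMM library sizes. Counting intervals are exact at 95% and cover counting error only. Genes were named if called between medium and low with no overlap of the groups and a mean level of 2 log2 CPM or more, up to 15 per direction, along with HMOX1, ANGPTL4, THBD and KIF20A and, of genes not called at the medium dose, the 5 largest rises and 5 largest falls of high against vehicle. Other genes in the text were chosen after their values were seen, as members of the gene lists or as the next by p. Replicates of the medium and of the low dose differed by more than sampling noise and were counted as separate samples. Alternatives were RLE scaling, no filter, DESeq2 1.42.0, a length covariate, set 11 alone, the compared groups alone, a replicate block and leaving out each library. The procedure was tested on simulated data. The members and gene lists were chosen with earlier results of these data known.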

Additional observations from a re-analysis of the deposited data

Results flagged for a closer look

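The medium steps of Aucklandiae Radix (32 against 6.4 µg/mL) and Polygalae Radix (6 against 1.2 µg/mL) differed by an edgeR interaction test for 6 of the genes named, each with an n of 2 libraries per dose. All 6 were chosen by the p of their Aucklandiae step, which is part of this difference, so these calls are no independent support. The difference of the log2 steps was 1.08 for SLCO4A1, 1.23 for KCNC4 and -0.65 for ANGPTL2, as given above with the refits that lost each call. For BEGAIN it was -0.75 (edgeR adjusted p = 0.0262), with 19.4 and 21.2 CPM in the Aucklandiae medium libraries, against 32.8 and 27.5 CPM in its low libraries, and 40.1 and 33.8 CPM in the Polygalae medium libraries, against 33.7 and 31.4 CPM in its low libraries. TSPY26P, a pseudogene, differed by -1.05 (edgeR adjusted p = 0.0262). BMF, a BH3-only gene of the BCL2 family, differed by -1.68 (edgeR adjusted p = 0.0141), with 1.98 and 2.04 CPM in the Aucklandiae medium libraries, against 4.71 and 4.03 CPM in its low libraries, and 7.22 and 6.97 CPM in the Polygalae medium libraries, against 4.02 and 5.57 CPM in its low libraries. BEGAIN, TSPY26P and BMF were looked at because their medium steps had the next lowest p, after their values were seen. BEGAIN and TSPY26P kept the call in 2 each and BMF in 3 of the 8 refits that left out 1 library, with adjusted p up to 0.328, 0.229 and 0.126, and without the filter on low counts the call of all 6 was lost.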

How the results depend on the processing

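Counts of calls changed with the processing; no called gene named here changed sign, but list medians near 0 did, and 83 list medians moved. Medium against low gave 9 calls, and 4 without the filter, 156 with a length covariate (all 9 shared), 20 in set 11 alone (5 shared), 19 in the compared groups alone (3 shared), 31 with DESeq2 (9 shared, and 7 of the 31 with a fitted log2 change beyond 10) and 2 to 6 without 1 library. High against low gave 7955 with the length covariate, 7236 in the compared groups and 2807 to 2891 without 1 library. High against medium gave 6695, 5038 in set 11, 4712 in the compared groups and 1997 to 2206 without 1 library. High against vehicle gave 9540 and 9263. The Polygalae step gave 28 without the filter, 2133 with the length covariate, 388 in set 11, 134 in the compared groups, 398 with DESeq2 and 39 to 99 without 1 library; the difference of steps gave 2, 1100, 214, 196, 193 and 16 to 51 in the same settings. The cause was not tested.

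With a replicate block the counts were 8 for medium against low (8 shared), 4205, 3100, 5303 and 198 for the other comparisons in that order and 80 for the difference of steps. The main fit did not pair same-numbered libraries, as the labels do not say whether they share a culture or day. The correlation of replicate differences was 0.43 between medium and low, so these groups did share part of their replicate difference. It ran from -0.17 to 0.76 over the 15 pairs of groups in set 11, with 10 over 0.1. With the block METTL7A was lost (edgeR adjusted p = 0.0856). LGR6 and FIBIN had 22 to 48 counts in the medium libraries.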

Other observations

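Other genes among the 10 next lowest p for medium against low, chosen after their values were seen, were HCP5, a noncoding RNA of the MHC region, with a log2 difference of -0.84, and EPSTI1, an interferon-inducible gene, with -0.86 (edgeR adjusted p = 0.109). Neither was called at the medium dose. HCP5 was at 0.213 and 0.174 CPM in the high-dose libraries. Of the 10 genes 9 were lower and 1 was higher at 32 µg/mL, and all 10 were called between high dose and vehicle, where 31.6% of all genes were called, 15.2% higher and 16.4% lower.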
